A study of Mus musculus with 57 samples.

Results

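In the prefrontal cortex of young mice, 34 genes of the unfolded protein response, the integrated stress response and the heat shock response were compared across both genotypes and 3 treatments. The genes were chosen by name. They comprise 14 chaperones and folding factors of the endoplasmic reticulum (ER), 4 components of ER-associated degradation, 9 stress regulators and integrated stress response targets, and 7 cytosolic chaperones. Of these, 33 had a mean of at least 10 normalized counts over all libraries and were tested together with all 16659 genes that passed this limit, out of 51456 genes listed. Trib3, a pseudokinase induced by the transcription factors ATF4 and CHOP, averaged 8.6 normalized counts and was not tested.

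The samples were C57BL/6N mice heterozygous for Shank2 (HT), the gene of a postsynaptic scaffold protein, and their wild-type counterparts (WT). Pups received the antidepressant fluoxetine, which blocks serotonin reuptake, or lithium, used to stabilize mood, or vehicle from postnatal day 3 to postnatal day 24 through their mother's milk, and tissue was analysed on postnatal day 25. There were 10 HT fluoxetine, 10 HT lithium and 10 HT vehicle libraries, and 10 WT fluoxetine, 9 WT lithium and 8 WT vehicle libraries. Every arm held both sexes, with 4 or 5 libraries of each. The sources used here give no dose, no litter and no number of mice behind a library. The p-values therefore measure the spread between these libraries, and pups nursed by the same mother cannot be recognised.

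All libraries were brought to a common scale by the authors, with totals of 30378902 to 33234604 normalized counts. Shank2 ranged from 3877 to 5006 normalized counts in the 30 HT libraries and from 6762 to 11791 in the 27 WT libraries, without overlap. The 10 excitatory neuron markers summed to between 58288 and 88029 normalized counts in every library. The WT vehicle male replicate 2 and HT fluoxetine male replicate 3 libraries had the lowest median correlation with the others, 0.968 and 0.970, against a next lowest value of 0.977. A set of 14 striatal markers was high in 15 libraries, of which 7 were fluoxetine, 5 lithium and 3 vehicle libraries. Results that rest on these libraries are given with and without them. For fluoxetine over both sexes without the 15 libraries, only sizes of change are given, since 4 of the 5 WT fluoxetine female libraries are among them.

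When unfolded proteins accumulate in the ER, the sensors IRE1, PERK and ATF6 raise transcription of ER chaperones, oxidoreductases and degradation factors. IRE1 splices Xbp1 mRNA into the form that encodes an active transcription factor, ATF6 is cleaved to release one, and PERK reduces translation in general while favouring that of ATF4, whose targets include CHOP (Ddit3) and amino acid synthesis enzymes. The heat shock response is a separate program in which the factor HSF1 induces cytosolic chaperones. In neurons, ER chaperones serve the folding of receptors, channels and secreted peptides.

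XBP1 and ATF6 act on ER chaperone promoters through the ER stress response element (ERSE), here searched on both strands as CCAAT and CCACG with any 9 bases between them. RefSeq promoter sequences (build GRCm38.p6) were at hand for 28 of the 33 genes, and the 250 bases before each start were read. Manf, Hspa8, Atf6, Hsp90aa1 and Hyou1 had no entry. ERSE occurred in 37 of 32851 promoters, or 0.113%, and in 8 of the 28. The matches are shown because this element is the best known sequence that the ER chaperone genes share. The capitals mark its fixed ends, and each match is written 5′ to 3′ on the strand where it reads as ERSE.
Hspa5, chr2:34772025-34772043 (+): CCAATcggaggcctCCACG
Pdia6, chr12:17266491-17266509 (+): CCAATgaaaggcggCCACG
Dnajc3, chr14:118937827-118937845 (+): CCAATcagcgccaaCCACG
Creld2, chr15:88819520-88819538 (-): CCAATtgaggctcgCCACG
Calr, chr8:84847075-84847093 (+): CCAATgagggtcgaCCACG
Hsp90b1, distal match, chr10:86705638-86705656 (-): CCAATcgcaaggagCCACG
Hsp90b1, proximal match, chr10:86705533-86705551 (+): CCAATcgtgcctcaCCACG
Canx, chr11:50325800-50325818 (-): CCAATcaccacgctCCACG
Syvn1, chr19:6046532-6046550 (+): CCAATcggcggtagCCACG

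The first 4 of these genes changed under fluoxetine, as described further on, and the other 4 did not pass the test. ERSE was thus found in 4 of the 10 changed genes with a promoter entry and in 4 of the 18 others, which is a description of the sequences and not a test. The related ERSE-II, searched as ATTGG and CCACG with any 1 base between them, occurred only in Herpud1 among the 28 and in 10 of all promoters. Its match lies at chr8:94386377-94386387 on the plus strand and reads ATTGGgCCACG.

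The element of the C/EBP and ATF4 dimer, searched as TGATG and AA with any 1 base between them, was found in Chac1, Asns and Herpud1 and in 3.45% of all promoters. The heat shock element, searched as GAA, TTC and GAA or TTC, GAA and TTC with any 2 bases between units, was found in 0 of the 28 and in 0.466% of all promoters. These exact letters are strict, and the count says nothing of HSF1 at these genes.

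The promoter of Hspa5, which encodes the ER chaperone BiP, is given whole because Hspa5 had the smallest p of all 33 genes under fluoxetine. It covers chr2:34771840-34772089 on the plus strand, and its exact ERSE match, in capitals, starts 65 bases before the RefSeq start. Sites that differ from the searched letters were not marked.
Hspa5 promoter: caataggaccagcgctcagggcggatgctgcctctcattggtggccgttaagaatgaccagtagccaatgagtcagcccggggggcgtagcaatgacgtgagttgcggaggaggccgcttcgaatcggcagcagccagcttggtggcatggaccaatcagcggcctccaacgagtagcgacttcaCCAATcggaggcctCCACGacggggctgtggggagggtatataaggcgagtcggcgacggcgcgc

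Per kilobase of the longest coding transcript, the levels spanned from 26002 normalized counts for Hspa8, the constitutive cytosolic HSP70, to 99.1 for Chac1, a glutathione-degrading enzyme induced by ATF4. Hsp90aa1, the inducible cytosolic HSP90, followed at 9825, and the lectin chaperone Calr at 4791. Hspa5 stood at 2254. Among the lowest were the small heat shock protein gene Hspb1 at 168, the inducible HSP70 genes Hspa1b at 138 and Hspa1a at 124, and the mannosidase-like degradation factor Edem1 at 118.

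Within groups, the genes varied to very different degrees. Sdf2l1, a partner of BiP, had the largest SD of log2 values at 0.39, followed by Hspa1b at 0.36, Hspb1 at 0.34, and Hspa5 and the disulfide isomerase Pdia4 at 0.27 each. The ubiquitin ligase Syvn1 had the smallest at 0.08. The median over the 33 genes was 0.16, against 0.17 over all genes tested. Sdf2l1 spanned a 5.54-fold range between its lowest library, with 160.2 normalized counts, and its highest, with 887.

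Part of this variation was shared. After the mean of each of the 12 genotype, drug and sex groups was removed, 354 of the 528 pairs correlated at an adjusted permutation p under 0.05 across the 57 libraries, and 485 of the 528 had a positive r. The median r over all pairs was 0.46. Pairs of other genes were not counted in this way, so nothing particular to these genes is read from these shares. Among the 14 ER chaperones, all 91 pairs were called, with a median r of 0.80 and a range of 0.30 to 0.95. Their lowest values were those of Canx, the membrane-bound lectin chaperone, with Dnajb9, a BiP cochaperone.

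Hspa5 and the disulfide isomerase Pdia6 gave the largest r at 0.949, with a Spearman rho of 0.930. Next came Pdia6 with Sdf2l1 (r = 0.945, rho = 0.944) and the ER HSP90 gene Hsp90b1 with Calr (r = 0.940, rho = 0.930). Pdia6 with Calr followed (r = 0.938, rho = 0.896), then Hspa5 with Sdf2l1 (r = 0.937, rho = 0.895). For each of these 5 pairs both permutation p-values were 1e-05 by 100000 permutations, the smallest they can give, with an adjusted p of 3.8e-05 for r. Without the 2 libraries farthest from the median of the first gene, r was 0.943, 0.944, 0.935, 0.925 and 0.921 in the same order. Within females these pairs had r between 0.918 and 0.961, and within males between 0.927 and 0.961.

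Xbp1 varied with most of the other genes, since 28 of its 32 pairs were called, and its r with Sdf2l1 was 0.92. This was not particular to Xbp1 or to the ER. The cytosolic Hspa8 had 28 of 32 pairs called and Syvn1 29 of 32. Of the 98 pairs of a cytosolic and an ER chaperone 87 were called, with a median r of 0.57. Edem1 did not vary with the others, with a median r of -0.15 over its 32 pairs and 1 pair called. Asns, encoding asparagine synthetase, had 5 of 32 pairs called, and the factor Atf5 had 2 of 32. Without the WT vehicle male replicate 2 library 330 pairs were called, and without it and the HT fluoxetine male replicate 3 library the ER chaperone pairs had a median r of 0.82. The libraries share the authors' scaling, and the part of the library differences described further on, in transcript length trend and striatal markers, was not tested for these correlations.

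**Figure D1:**
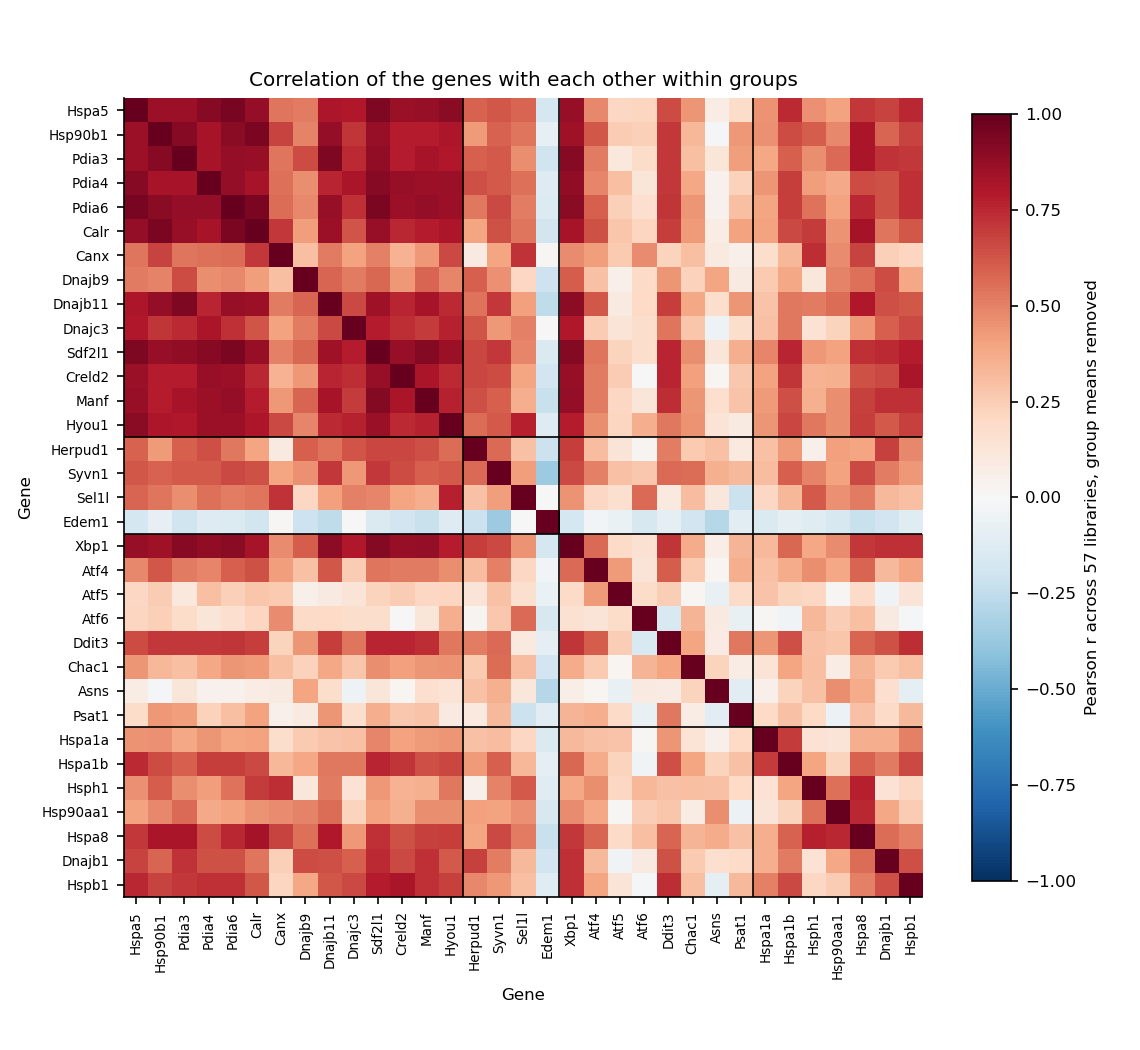
Pearson r between each pair of the 33 genes across 57 libraries after removal of the 12 group means, on a scale of -1 (blue) to 1 (red); black lines separate ER chaperones, ER-associated degradation, regulators and cytosolic chaperones, in this order. The ER chaperone block is red throughout (91 of 91 pairs called, median r 0.80), Xbp1 has 28 of its 32 pairs called and its lowest r, -0.17, with Edem1, and Edem1 and Asns are pale.

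The first question of the design for these genes is what each drug did relative to vehicle. Over both genotypes, fluoxetine lowered 12 of the 33 genes and raised none, at an adjusted p under 0.05. Of all genes tested, 3.07% were called lower and 1.68% higher. The median log2 change of the 33 genes was -0.12, against 0.01 over all genes. ER chaperones made up most of the calls, with 8 of 14 lower, against 2 of 8 regulators, 2 of 7 cytosolic chaperones and 0 of 4 degradation components. The ER chaperones rise and fall together within groups, so their calls are not independent. In bulk tissue, fewer cells of a type and less RNA per cell cannot be told apart.

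Hspa5 had 4783, 7194 and 8793 normalized counts (lowest, median, highest) in the 20 fluoxetine libraries, against 5955, 9479.5 and 13182 in the 18 vehicle libraries. The ranges overlapped, but all 20 fluoxetine libraries were below the vehicle median and 13 of the 18 vehicle libraries were above the highest fluoxetine library. The log2 change was -0.41 ± 0.09 (SE, 95% interval -0.58 to -0.24, adjusted p = 0.00303), so that Hspa5 fell by 24.6%. In HT mice the change was -0.40 (adjusted p = 0.0899) and in WT mice -0.41 (adjusted p = 0.0933).

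Sdf2l1 had the largest change of the 33. It had 160.2, 288 and 413 normalized counts in fluoxetine libraries, against 196, 408 and 887 in vehicle libraries. All but 1 of the 20 fluoxetine libraries lay below the vehicle median, and 8 of 18 vehicle libraries lay above every fluoxetine library. Its log2 change was -0.57 ± 0.12 (adjusted p = 0.00416), a fall by 32.7%.

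Manf, which encodes a secreted ER-resident neurotrophic factor, had 739, 1043 and 1288 normalized counts in fluoxetine libraries, against 803, 1295 and 2320 in vehicle libraries. Each of the 20 fluoxetine libraries was below the vehicle median, and 11 vehicle libraries exceeded the highest of them. It changed by -0.35 ± 0.08 (adjusted p = 0.00669).

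Creld2, another ER stress-inducible secreted protein, had 239, 308 and 392 normalized counts in fluoxetine libraries, against 248, 366 and 623 in vehicle libraries, with 18 of 20 below the vehicle median. Its log2 change was -0.30 ± 0.08 (adjusted p = 0.0161).

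The disulfide isomerases Pdia6 and Pdia4 catalyse disulfide bond formation in the ER. Pdia6 had 1837, 2978 and 3540.1 normalized counts in fluoxetine libraries, against 2403, 3562 and 4987 in vehicle libraries. Pdia4 had 761, 1139.9 and 1435 in fluoxetine libraries, against 767, 1355 and 2053 in vehicle libraries. Both overlapped widely at the low end, while 9 and 7 vehicle libraries lay above the highest fluoxetine library. Pdia6 changed by -0.29 ± 0.07 (adjusted p = 0.00707) and Pdia4 by -0.30 ± 0.08 (adjusted p = 0.0294).

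Dnajc3 encodes p58IPK, a BiP cochaperone. Its values were 1488, 1726 and 1896 normalized counts in fluoxetine libraries, against 1448, 2021 and 2288 in vehicle libraries, with 12 of 18 vehicle libraries above all fluoxetine libraries. The lowest library of all was nevertheless a vehicle one. The log2 change was -0.20 ± 0.05 (adjusted p = 0.00526). Hyou1, the ER HSP110 that exchanges nucleotide on BiP, had 2920.3, 3677 and 4101 in fluoxetine libraries, against 3252, 4030.3 and 5166 in vehicle libraries, and changed by -0.14 ± 0.04 (adjusted p = 0.0439).

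The other 6 ER chaperones did not pass. Dnajb11 (-0.15, adjusted p = 0.0753), Pdia3 (-0.15, adjusted p = 0.0860), Calr (-0.19, adjusted p = 0.0963) and Hsp90b1 (-0.12, adjusted p = 0.148) had negative log2 changes. Dnajb9 had 0.00 with a 95% interval of -0.06 to 0.06, and Canx 0.01 with an interval of -0.06 to 0.08. The degradation components had log2 changes of -0.04 for the ER membrane protein Herpud1, -0.03 for Syvn1, -0.03 for its partner Sel1l and 0.01 for Edem1, with adjusted p from 0.524 to 0.940.

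**Figure D2:**
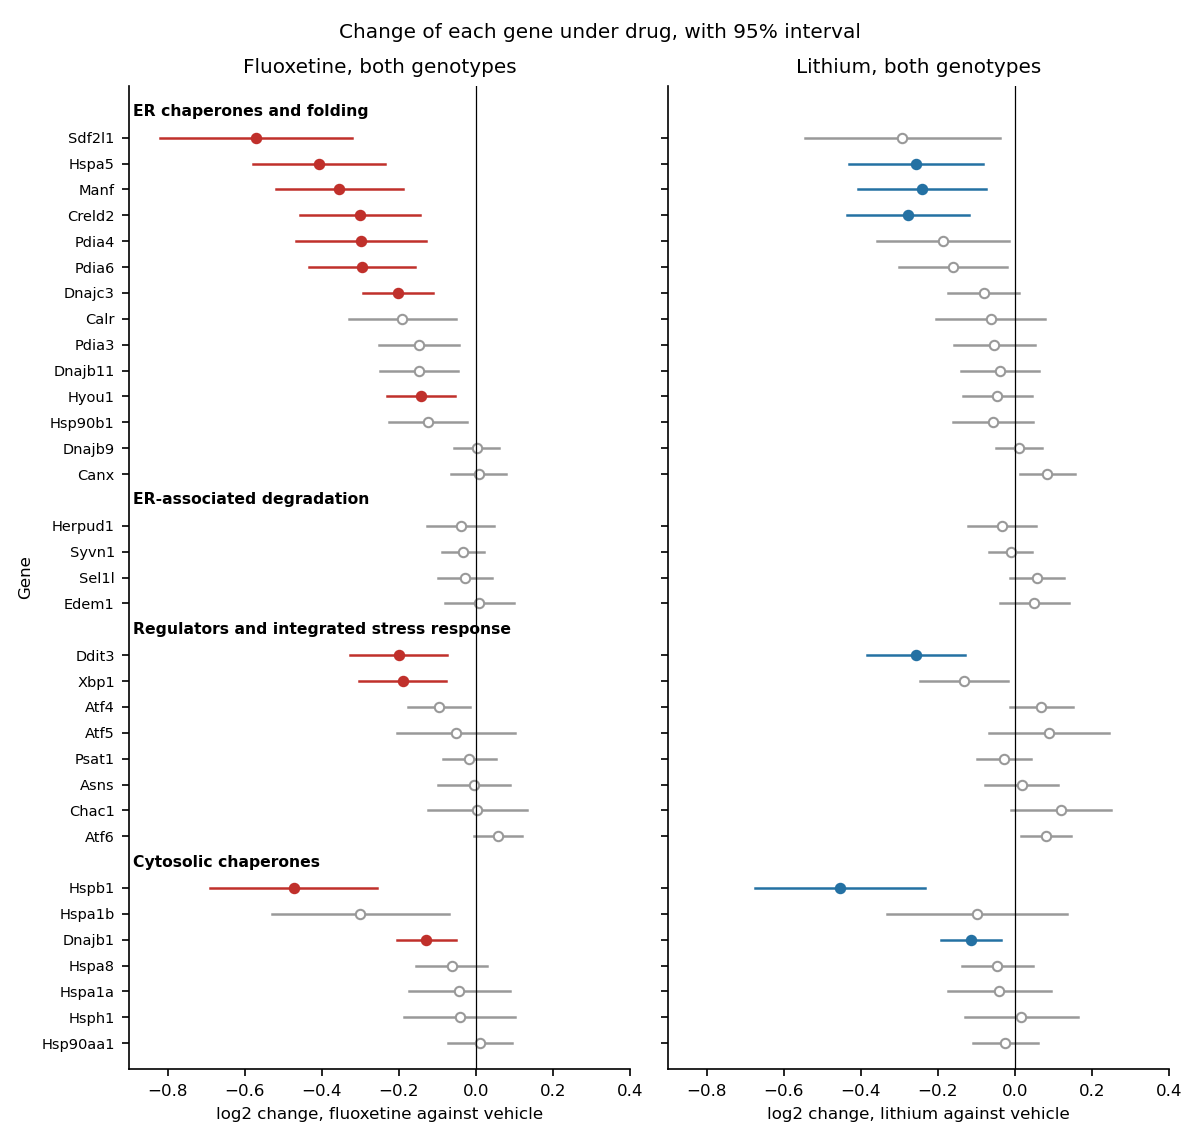
Log2 change of each of the 33 genes under fluoxetine (left) and lithium (right) against vehicle over both genotypes; bars are 95% intervals, filled coloured points have an adjusted p under 0.05 and open grey points do not, and genes are grouped by role. The 12 filled points for fluoxetine run from -0.57 (Sdf2l1) to -0.13 (Dnajb1), and the 6 for lithium from -0.45 (Hspb1) to -0.11 (Dnajb1).

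Among the regulators, Xbp1 had 1519, 1907 and 2222 normalized counts in fluoxetine libraries, against 1446, 2114 and 3062 in vehicle libraries, with 19 of 20 below the vehicle median. It changed by -0.19 ± 0.06 (adjusted p = 0.0364). The table holds 1 value per gene, so spliced and unspliced Xbp1 were not separated. Ddit3, which encodes the pro-apoptotic factor CHOP, had 319, 394 and 475 in fluoxetine libraries, against 352, 430.3 and 761 in vehicle libraries. Its change of -0.20 ± 0.06 was at the limit (adjusted p = 0.0499). The symbol Ddit3 has 2 gene entries, and the one with the higher mean is given here.

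The remaining regulators and ATF4 targets did not pass. Atf4 had a log2 change of -0.10 (adjusted p = 0.159) and Atf6 one of 0.06 (adjusted p = 0.302). Atf5 (-0.05), the serine synthesis enzyme Psat1 (-0.02), Asns (0.00) and Chac1 (0.00) had adjusted p from 0.755 to 0.984. Their 95% intervals ran at most from -0.20 to 0.13.

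Of the cytosolic chaperones, Hspb1, which encodes HSP27 (HSP25 in mice), had 104, 137 and 178 normalized counts in fluoxetine libraries, against 97.0, 181 and 318 in vehicle libraries. All 20 fluoxetine libraries were below the vehicle median and 9 vehicle libraries were above them all. It changed by -0.47 ± 0.11 (adjusted p = 0.00616), a fall by 28.0%. Dnajb1, the main HSP40, had 1622, 1774 and 2011 in fluoxetine libraries, against 1644, 1946 and 2563 in vehicle libraries, and changed by -0.13 ± 0.04 (adjusted p = 0.0386).

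The inducible HSP70 genes did not pass. Hspa1b had a log2 change of -0.30 (adjusted p = 0.117) and Hspa1a one of -0.04 (adjusted p = 0.755). Their transcripts share 31-base words over 68.0% and 65.4% of their length, mostly with each other, and 247 of 250 promoter bases are identical, so that the assignment of reads between them is uncertain. Hspa8 (77.2% shared), Hsp90aa1 (62.9%) and Hspb1 (56.7%) also have near copies, although Hsp25-ps1, the copy of Hspb1, averaged 0.225 normalized counts. Hspa8, Hsph1 and Hsp90aa1 had changes of -0.06, -0.04 and 0.01. In addition, 12 of the genes overlap a gene on the opposite strand, among them Pdia6, Manf and Ddit3. The kit keeps strand per the labels, but the sources used here do not say how strand was used in counting.

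**Figure D3:**
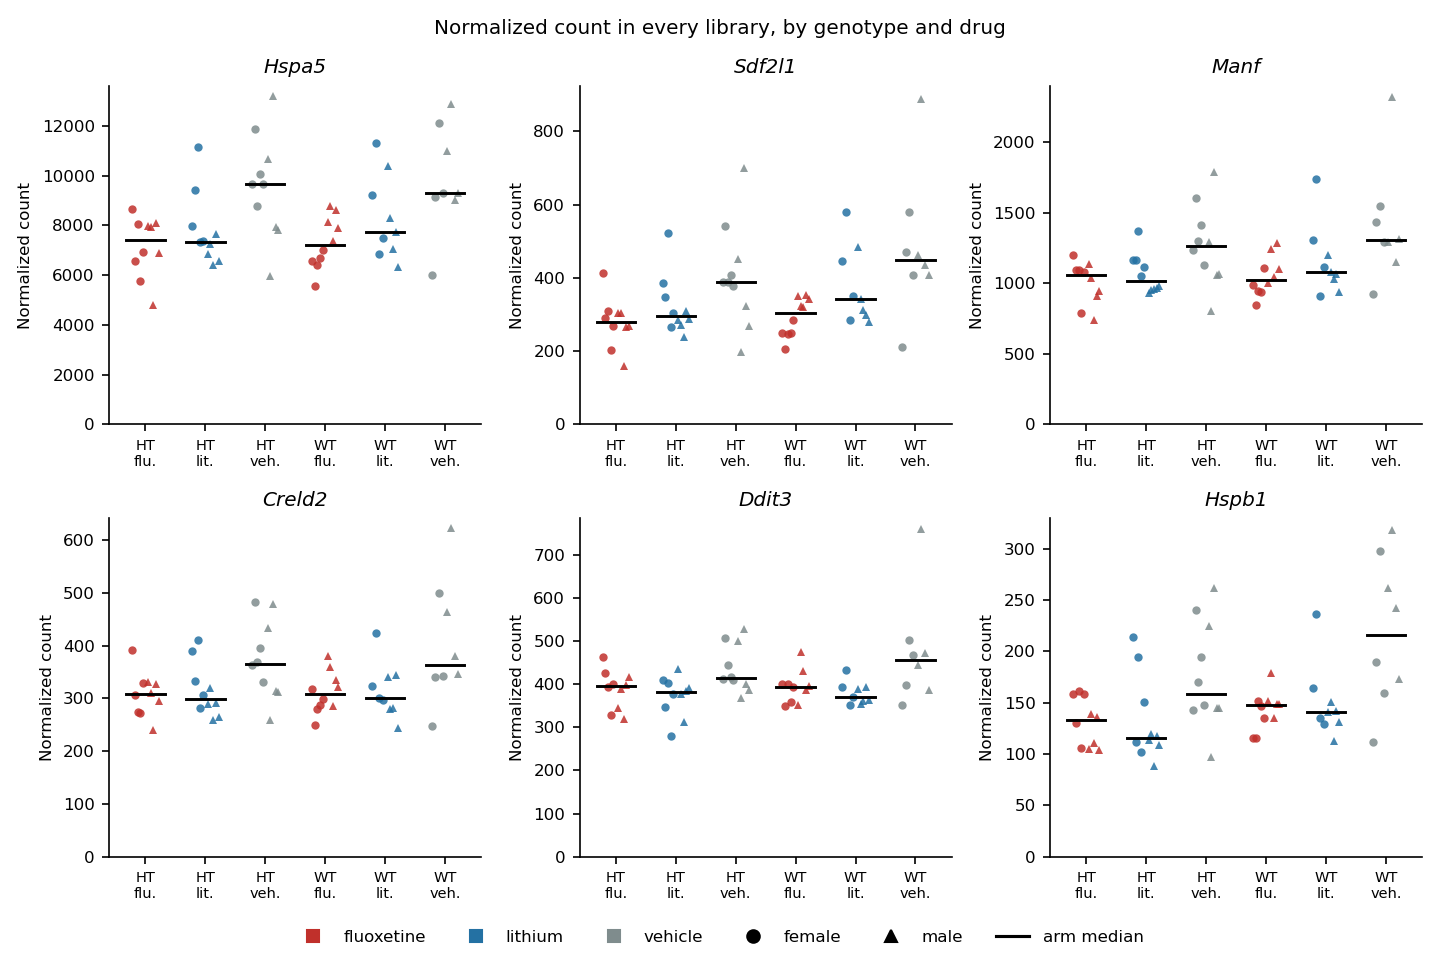
Normalized count of Hspa5, Sdf2l1, Manf, Creld2, Ddit3 and Hspb1 in every library by genotype (HT, WT) and drug (fluoxetine, lithium, vehicle); circles are females, triangles males and lines arm medians. For Hspa5 the arm medians are 7420.4 (HT fluoxetine), 7348 (HT lithium), 9659.6 (HT vehicle), 7194 (WT fluoxetine), 7729 (WT lithium) and 9299 (WT vehicle).

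Within a single genotype no gene passed under fluoxetine by limma. In HT mice 15 of 33 were lower and 0 higher at an unadjusted p under 0.05, and in WT mice 13 were lower and 1 higher. Of all genes, 7.6% and 6.87% were lower at this limit in HT and WT mice. By adjusted p, 0.24% of all genes were lower and 0.09% higher in HT mice, and 0.516% lower and 0.324% higher in WT mice. The difference of the fluoxetine effect between HT and WT was called for 0 of the 33 genes and 0% of all genes. At an unadjusted p under 0.05 it was 0 of the 33 and 7.71% of all genes. For Hspa5 it was 0.01 with a 95% interval of -0.34 to 0.35.

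The fluoxetine calls depended on which libraries and covariates entered the fit. The WT vehicle male replicate 2 library had the highest value of all 57 for 8 of the 12 genes, and the HT fluoxetine male replicate 3 library the lowest for 7 of the 12. Without both, 6 of the 12 passed, namely Hspa5 (-0.35, adjusted p = 0.0136), Dnajc3, Pdia6, Sdf2l1, Manf and Hspb1. Leaving out 1 library at a time gave 7 to 17 calls, with 7 without HT vehicle male replicate 3, without WT vehicle female replicate 3 and without WT vehicle male replicate 2. Hspa5, Pdia6, Dnajc3, Sdf2l1, Creld2, Manf and Hspb1 were called in each of these 38 fits. Hyou1 was called in 15 and Ddit3 in 12.

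Without the 15 libraries high in striatal markers, Hspa5 had a log2 change of -0.33 and Sdf2l1 one of -0.47. That fit left out 4 of the 5 WT fluoxetine female libraries and 2 of the 4 WT vehicle female ones. It therefore cannot show whether the calls of the 12 genes hold. With the striatal marker level as a term in the fit of all libraries, 12 were called. The slope of a library's values on transcript length, taken over genes on none of the lists used, had a median of 0.008 in fluoxetine, 0.016 in lithium and -0.009 in vehicle libraries, with the WT vehicle male replicate 2 library at -0.170. With this slope as a term 0 of the 12 were called, Hspa5 had -0.31 (adjusted p = 0.0644) and Sdf2l1 -0.36 (adjusted p = 0.106). The part of transcript length and tissue make-up in these results was not tested further.

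**Figure D4:**
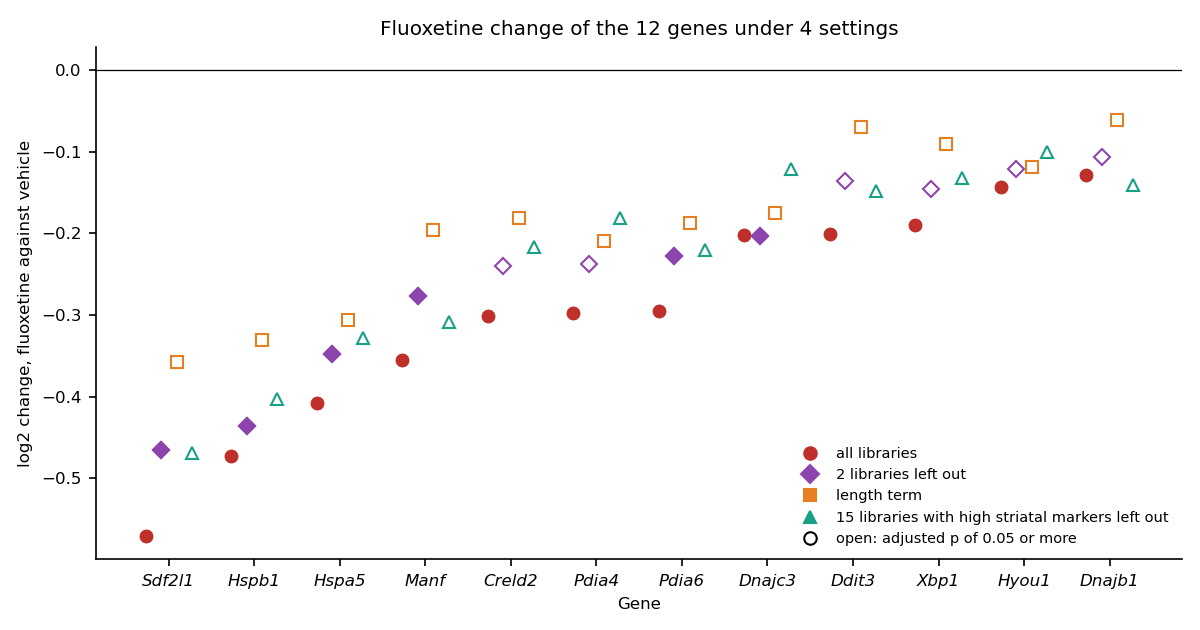
Log2 change of the 12 genes under fluoxetine against vehicle in all 57 libraries (circles), without the WT vehicle male replicate 2 and HT fluoxetine male replicate 3 libraries (diamonds), with the length slope as a term (squares) and without 15 libraries high in striatal markers (triangles); open symbols have an adjusted p of 0.05 or more. Every value is below 0, and 12, 6 and 0 of the 12 genes pass for circles, diamonds and squares. The triangles come from a fit without 4 of the 5 WT fluoxetine female libraries, which cannot show whether calls hold.

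Cell type markers were examined for the same contrast. Red cell genes fell in 4 of 5 cases, with Hbb-bs at -0.66, and their summed level was 1956 to 10547 in fluoxetine libraries, against 4217 to 19853 in vehicle libraries. Of the 12 immediate early genes, Junb fell, and their sum was 11040 to 28442 in fluoxetine libraries, against 17212 to 34762 in vehicle libraries. Of 6 oligodendrocyte precursor markers Olig2 fell, and their sum was 7950.3 to 11636 in fluoxetine libraries, against 9387 to 14307 in vehicle libraries. Of 8 microglia markers Aif1 fell, with sums of 6083 to 11897 in fluoxetine libraries, against 8308 to 13083 in vehicle libraries. Of 9 endothelial and mural markers Cldn5 fell (sums 7434 to 12370.1, against 8371 to 14108 in vehicle libraries), and of 8 inhibitory neuron markers Vip fell (sums 26931 to 37527, against 23783 to 43178 in vehicle libraries). No marker passed among those of excitatory neurons (10), astrocytes (8), oligodendrocytes (8), choroid plexus and meninges (8 tested) or striatum (14). No list had a member at 0 throughout, and their part in the results was not tested.

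Other genes of these pathways were taken from lists that do not include the 33. Under fluoxetine 3 of 28 further ER folding and translocation genes fell, namely the cyclophilin Ppib (-0.16), the translocon subunit Sec61b (-0.22) and the oligosaccharyltransferase subunit Ostc (-0.16). Of 41 further heat shock genes, the collagen chaperone Serpinh1 (-0.37) and the master regulator Hsf1 (-0.12) fell. None passed among 19 degradation genes, 16 sensors and regulators and 27 integrated stress response targets. The 5 called lower are 3.82% of the 131 genes, beside 3.07% of all genes, and nothing is read from this share. Of the 27 integrated stress response targets 1 was higher and 3 were lower at an unadjusted p under 0.05. Of all genes, 9.87% were higher and 10.3% lower at this limit, and nothing is read from these counts.

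Lithium lowered 6 of the 33 genes over both genotypes and raised none, while 6.14% of all genes were called lower and 7.16% higher. The median log2 change was -0.05, against 0.00 over all genes. Of the 14 ER chaperones 3 passed, beside 1 regulator and 2 cytosolic chaperones. Both drugs were compared with the same 18 vehicle libraries, so the lists are not independent.

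Hspb1 led the list. It had 88.1, 132 and 237 normalized counts in the 19 lithium libraries, against 97.0, 181 and 318 in vehicle libraries, with 16 of 19 below the vehicle median. Its log2 change was -0.45 ± 0.11 (adjusted p = 0.00402), beside -0.47 under fluoxetine. Ddit3 had 280.3, 378 and 435 in lithium libraries, against 352, 430.3 and 761 in vehicle libraries, and 9 vehicle libraries lay above every lithium library. It changed by -0.26 ± 0.06 (adjusted p = 0.00504), beside -0.20 under fluoxetine.

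Creld2 had 243, 300.2 and 424 normalized counts in lithium libraries, against 248, 366 and 623 in vehicle libraries, a change of -0.28 ± 0.08 (adjusted p = 0.0140). Hspa5 had 6315, 7499 and 11298, against 5955, 9479.5 and 13182 in vehicle libraries. Here 4 of 18 vehicle libraries exceeded all lithium libraries, and the change was -0.26 ± 0.09 (adjusted p = 0.0394), beside -0.41 under fluoxetine.

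Manf had 913, 1064 and 1739.9 normalized counts in lithium libraries, against 803, 1295 and 2320 in vehicle libraries, with 16 of 19 below the vehicle median and a change of -0.24 ± 0.08 (adjusted p = 0.0435). Dnajb1 had 1575, 1756 and 2162 in lithium libraries, against 1644, 1946 and 2563 in vehicle libraries, again with 16 of 19 below the vehicle median. It changed by -0.11 ± 0.04 (adjusted p = 0.0422).

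Several ER chaperones that fell under fluoxetine did not pass under lithium. Sdf2l1 had -0.29 (adjusted p = 0.116), Pdia4 -0.19 (adjusted p = 0.143), Pdia6 -0.16 (adjusted p = 0.119), Dnajc3 -0.08 (adjusted p = 0.251) and Hyou1 -0.05 (adjusted p = 0.543). The 2 drugs were not tested against each other here. Positive values that did not pass were seen for Canx (0.09, adjusted p = 0.108), Atf6 (0.08, adjusted p = 0.0814), Chac1 (0.12, adjusted p = 0.215), Atf5 (0.09, adjusted p = 0.488) and Atf4 (0.07, adjusted p = 0.265).

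Hspb1, Ddit3 and Creld2 were called in each of the 37 fits that left out 1 lithium or vehicle library, Hspa5 in 22, Dnajb1 in 20 and Manf in 14. The number of calls ranged from 3 to 10. It was 3 without any one of 10 libraries, which were HT lithium female 5, HT vehicle female 2, HT vehicle male 1 and 3, WT lithium female 3 and 4, WT lithium male 3 and 5, WT vehicle female 3 and WT vehicle male 2 by group and replicate, and 10 without HT vehicle male 2. Without the WT vehicle male replicate 2 and HT fluoxetine male replicate 3 libraries Creld2, Ddit3 and Hspb1 were lower and Atf4 was higher (0.10, adjusted p = 0.0238). With the length slope as a term Atf4 alone passed (0.15, adjusted p = 0.0264), and without the 15 libraries high in striatal markers none did.

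In WT mice taken alone, lithium lowered Hspb1 (-0.49, adjusted p = 0.0471), which had 113, 141 and 237 normalized counts in 9 lithium libraries, against 111, 215 and 318 in 8 vehicle libraries. The next smallest p-values belonged to Ddit3 (-0.28, adjusted p = 0.0507) and Atf6 (0.14, adjusted p = 0.0509). Of all genes, 3.08% were called lower in this contrast and 5.45% higher. The Hspb1 call was kept in 4 of 17 fits without 1 library, and was lost when WT lithium female replicate 1, 3 or 4, WT lithium male replicate 2, 3, 4 or 5, WT vehicle female replicate 2, 3 or 4, or WT vehicle male replicate 1, 2 or 3 was left out (adjusted p up to 0.160).

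In HT mice 0 of the 33 were called under lithium by limma, with 6 lower and 0 higher at an unadjusted p under 0.05, where 7.14% of all genes were lower. By adjusted p 0.702% of all genes were called lower and 0.186% higher. Hspb1 had -0.42 (adjusted p = 0.186), Ddit3 -0.23 (adjusted p = 0.202) and Hspa5 -0.28 (adjusted p = 0.270). The difference of the lithium effect between HT and WT was called for 0 of the 33 and 0% of all genes. Its smallest p belonged to Asns (-0.23, unadjusted p = 0.0193, adjusted p = 0.610).

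The marker lists were examined under lithium too. Of the oligodendrocyte precursor markers 2 of 6 fell (sums 9272 to 12214, against 9387 to 14307 in vehicle libraries), of the choroid plexus and meninges markers 1 rose and 1 fell, and of the endothelial and excitatory neuron markers 1 each rose. Red cell and striatal markers had 0 calls, and their part in the results was not tested.

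Of the 131 further pathway genes 10 were called higher (7.63%) and 11 lower (8.40%) under lithium, beside 7.16% and 6.14% of all genes. These shares are near the background, and nothing is read from them about the pathways. Among 28 ER folding genes Ppib (-0.14) and Sec61b (-0.17) fell, and the BiP cochaperone Dnajc1 (0.18) and the glycoprotein folding sensor Uggt1 (0.11) rose. Of the 19 degradation genes Edem3 rose (0.14), and the derlin Derl3 (-0.50) and the extraction factor Ufd1 (-0.11) fell. The site-2 protease gene Mbtps2, whose product cleaves ATF6, was the 1 of 16 sensors and regulators to pass and rose by 0.23.

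Among integrated stress response targets 3 of 27 rose and 3 fell. The arginine transporter Slc7a1 (0.26) and the stress protein Sesn2 (0.22) rose, and the mTORC1 inhibitor Ddit4 (-0.40) and the factor Cebpb (-0.26) fell. Of 41 further heat shock genes 3 rose and 4 fell, among them Hsf1 (-0.19), the mitochondrial HSP70 gene Hspa9 (0.10), Dnajb5 (0.21) and the chaperonin subunit Cct3 (-0.11). Of all genes 7.16% were called higher and 6.14% lower under lithium, and nothing is read from the counts of these lists.

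The second question is whether loss of 1 copy of Shank2 altered these genes. Over all treatments 0 of the 33 were called between HT and WT by limma, while 2.12% of all genes were called lower and 1.62% higher. At an unadjusted p under 0.05, 4 were lower and 0 higher, beside 9.91% of all genes lower, and 30 of 33 log2 changes were negative, with a median of -0.04 against 0.00 over all genes. Many of these genes rise and fall together, so their signs are not independent.

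Atf6 had the smallest p. It had 2850.0, 3234 and 3614 normalized counts in 30 HT libraries, against 2753, 3458 and 4161 in 27 WT libraries, and the WT range was wider and reached above the highest HT library. The change was -0.08 ± 0.03 (adjusted p = 0.0638). It passed with the length slope as a term (-0.09, adjusted p = 0.0436) and without the 2 libraries that stand apart (-0.08, adjusted p = 0.0468). Psat1 had 2233, 2627 and 3243 in HT libraries, against 2416, 2776 and 3429 in WT libraries (-0.08, adjusted p = 0.0769). Atf5 had 199.6, 367 and 593 in HT libraries, against 329, 401 and 548 in WT libraries (-0.16, adjusted p = 0.135).

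Hspa5 did not pass by genotype, with 4783, 7935 and 13182 normalized counts in HT libraries, against 5573, 8139.8 and 12889 in WT libraries. Its log2 change was -0.06 with a 95% interval of -0.20 to 0.08. Under each single treatment 0 of the 33 were called by limma, while 0.234% of all genes were called lower and 0.528% higher under vehicle, 0.162% and 0.06% under fluoxetine, and 0.084% and 0.03% under lithium. With unadjusted p-values under 0.05, 1 gene was lower under vehicle, 2 under fluoxetine and 3 under lithium, and 0 were higher, where 6.4%, 5.61% and 4.31% of all genes were lower in the same order. The smallest p-values belonged to Psat1 under vehicle (-0.12, adjusted p = 0.223), Atf5 under fluoxetine (-0.31, adjusted p = 0.213) and Atf6 under lithium (-0.12, adjusted p = 0.398).

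Sex was part of the design, and the genotype contrast was also read within each sex, a step added after the data were seen. In males over all treatments 3 genes were lower in HT than in WT, namely Hspb1 (-0.41 ± 0.12, adjusted p = 0.0273), Dnajb11 (-0.17 ± 0.06, adjusted p = 0.0468) and Psat1 (-0.14 ± 0.04, adjusted p = 0.0170), where 4.68% of all genes were called lower and 4.96% higher. In females none passed, and 0.408% of all genes were called lower and 0.24% higher. In males 27 of 33 log2 changes were negative with a median of -0.11, and in females 13 of 33 with a median of 0.00.

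The difference between females and males was itself called for 0 of the 33 genes by limma, where 0.588% of all genes were called. Without adjustment 18 of the 33 and 18.7% of all genes had a p under 0.05. Hspa5 had 0.10 in females and -0.22 in males, a difference of 0.32 ± 0.14 (adjusted p = 0.205). Hspb1 had -0.02 in females and -0.41 in males, a difference of 0.40 ± 0.18 (adjusted p = 0.213).

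Both libraries that stand apart are from males, 1 WT and 1 HT. Without them none of the 3 genes passed in males, with Psat1 at -0.12 (adjusted p = 0.0670), Hspb1 at -0.36 (adjusted p = 0.0903) and Dnajb11 at -0.10 (adjusted p = 0.250). In the 29 fits without 1 male library Psat1 was called every time, Hspb1 in all but those without WT vehicle male replicate 2 and HT vehicle male replicate 2, and Dnajb11 in 13, its adjusted p reaching 0.153 without WT vehicle male replicate 2. With the length slope as a term none of the 3 passed.

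**Figure D5:**
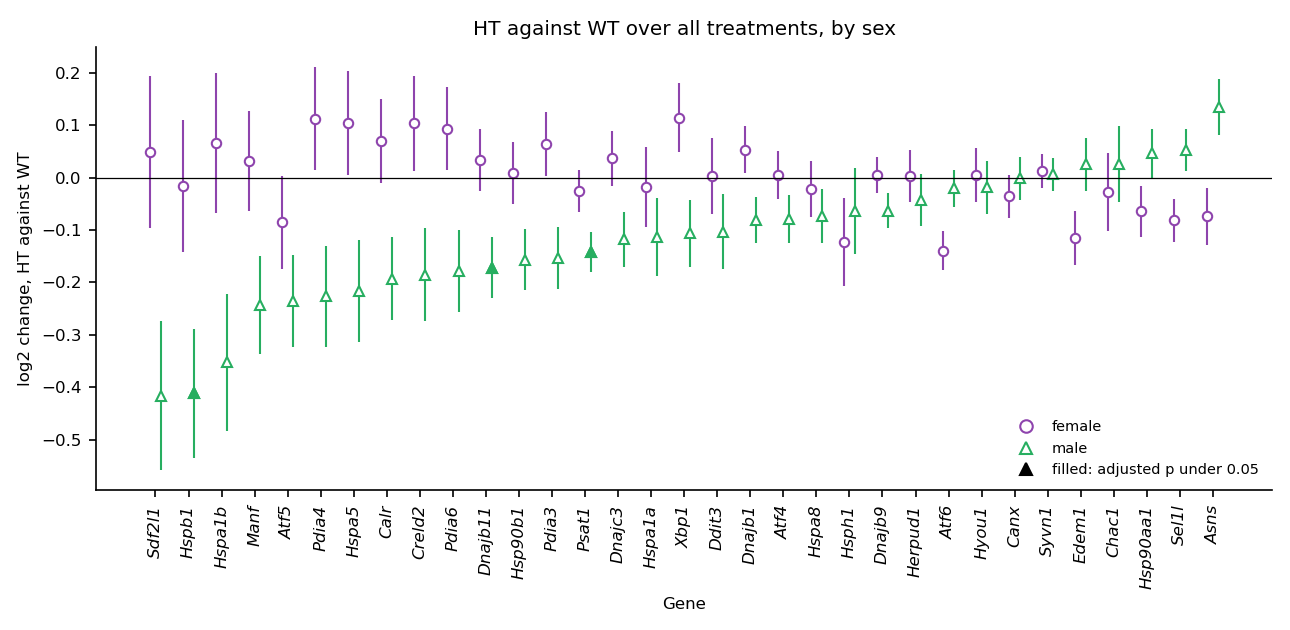
Log2 change of each of the 33 genes in HT against WT over all treatments in females (circles) and males (triangles), with bars of 1 SE; genes are ordered by the male value and filled symbols have an adjusted p under 0.05. Female values scatter about 0, while 27 of 33 male values are below 0 and Hspb1, Dnajb11 and Psat1 pass.

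Asns differed by sex under fluoxetine. In females it had 1954, 2253 and 2481 normalized counts in HT libraries, against 2387, 2437 and 2852 in WT libraries, and in males 2379, 2579 and 2774 in HT libraries, against 1779, 1972 and 2126 in WT libraries (lowest, median, highest, 5 libraries each). The male groups did not overlap, and the HT females were mostly lower than the WT females. The log2 change was 0.38 ± 0.09 in males (adjusted p = 0.0303, with 0.636% of all genes called higher) and -0.19 ± 0.09 in females (adjusted p = 0.356). The male call was kept in 4 of 10 fits without 1 male fluoxetine library. It was lost without HT male replicate 1, 3 or 5 or WT male replicate 2, 4 or 5 (adjusted p up to 0.114), and without the 15 libraries high in striatal markers (0.37, adjusted p = 0.124). The difference, female minus male, was -0.57 ± 0.13 (adjusted p = 0.0313), in a contrast where 0.804% of all genes were called with a negative difference. Without the HT fluoxetine male replicate 3 and WT vehicle male replicate 2 libraries it was -0.60 (adjusted p = 0.0185). It was called in 13 of 20 fits without 1 fluoxetine library, and lost without HT female replicate 1, 2 or 4, HT male replicate 1 or 5, WT female replicate 2 or WT male replicate 2 (adjusted p up to 0.0822). Without the 15 libraries high in striatal markers the difference was -0.57, in a fit that left out 4 of the 5 WT fluoxetine female libraries. The mean log2 level of these markers was 9.14 to 9.24 in the 5 WT fluoxetine male libraries, below the limit of 9.7. In WT mice under fluoxetine, sex and striatal marker level thus cannot be fully told apart, and their parts were not tested.

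The drug effects were read by sex in the same way. Over both genotypes lithium lowered Hspa5 (-0.38), Creld2 (-0.44), Manf (-0.37), Ddit3 (-0.31), Dnajb1 (-0.16) and Hspb1 (-0.72) in males and raised Atf6 (0.15), with adjusted p from 0.00159 to 0.0428, where 5.32% of all genes were called lower and 7.16% higher. In females 0 genes passed, with 0.036% of all genes called lower and 0.03% higher. In females 1 of the 33 and 8.47% of all genes had an unadjusted p under 0.05. Without the 2 male libraries that stand apart Hspb1 (-0.65, adjusted p = 0.00804) and Creld2 (-0.36, adjusted p = 0.0321) passed in males. Without the 15 libraries high in striatal markers Hspb1 (-0.69, adjusted p = 0.0400) and Atf6 (0.20, adjusted p = 0.0414) passed, and Creld2 did not (-0.44, adjusted p = 0.0631). With the length slope as a term 0 of the 7 passed by limma (adjusted p from 0.156 to 0.810). Hspb1 and Creld2 were called in all 19 fits without 1 male lithium or vehicle library. Ddit3 was called in 18 of them, Atf6 in 17, Manf in 16, Hspa5 in 12 and Dnajb1 in 8. Without WT vehicle male replicate 2 all of Hspa5, Manf, Ddit3, Dnajb1 and Atf6 lost their calls. The female and male effects of lithium were called different for 0 of the 33 and 0% of all genes. At an unadjusted p under 0.05 they differed for 3 of the 33 and for 937 of all 16659 genes. Hspb1 had -0.19 in females (difference 0.53 ± 0.22, adjusted p = 0.872).

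In WT males taken alone, lithium lowered 3 of the 33 genes and raised 1, where 3.82% of all genes were called lower and 6.37% higher. Hspb1 had 141, 151, 113, 142 and 132 normalized counts in lithium libraries, against 262, 318, 242 and 173 in vehicle libraries (-0.84 ± 0.22, adjusted p = 0.0109). The groups did not overlap. Creld2 had 243, 282 and 345 in lithium libraries, against 346, 422 and 623 in vehicle libraries (-0.58, adjusted p = 0.0155), and Ddit3 had 354, 364 and 395 in lithium libraries, against 387, 458 and 761 in vehicle libraries (-0.42, adjusted p = 0.0282). Atf6 had 3409, 3526 and 3755 in lithium libraries, against 2753, 3096 and 3273 in vehicle libraries (0.23, adjusted p = 0.0190). The highest vehicle value of Hspb1, Creld2 and Ddit3 and the lowest of Atf6 belonged to WT vehicle male replicate 2, a library that stands apart. Without that library 0 of the 33 passed by limma, and Hspb1 had an adjusted p of 0.118. None of the 4 passed with the length slope as a term or without the 15 libraries high in striatal markers (adjusted p from 0.0522 to 0.862). Among the other 8 fits without 1 library, Ddit3 was lost without WT lithium male replicate 2 or 3 and Atf6 without WT lithium male replicate 2.

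Under fluoxetine Hspb1 passed in males (-0.58, adjusted p = 0.0257), where 1.9% of all genes were called lower, and none passed in females, where 0.138% of all genes were called lower. At an unadjusted p under 0.05, 14 of the 33 and 13.1% of all genes passed in females. The Hspb1 call in males was lost without WT vehicle male replicate 2, HT vehicle male replicate 1 or HT vehicle male replicate 3. Without both libraries that stand apart it was lost too (-0.50, adjusted p = 0.186). The same held with the length slope as a term and without the 15 libraries high in striatal markers. Hspa5 had -0.47 in females (adjusted p = 0.0693) and -0.34 in males (adjusted p = 0.0957).

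Females and males were also compared over all arms, and 0 of the 33 were called by limma, while 0.066% of all genes were called higher in females and 0.042% lower. At an unadjusted p under 0.05, 2 were higher in females and 0 lower, beside 2.56% of all genes higher. Hspa1a had 276, 382 and 529 normalized counts in 28 female libraries, against 282, 331 and 439 in 29 male libraries, with overlapping ranges. Its log2 difference was 0.23 ± 0.05 (adjusted p = 0.0679), and it passed with the length slope as a term (0.24, adjusted p = 0.0297). Hsph1, the cytosolic HSP110, had 7907, 10260.0 and 12105 in females, against 3993, 9426 and 11492 in males (0.12, adjusted p = 0.906), and Hspa1b had a difference of 0.19 (adjusted p = 0.906).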

How the data were processed

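RNA was sequenced from 57 prefrontal cortex samples, with a stranded mRNA kit per the labels' protocols. Salmon 0.11.2, R 3.6.0, DESeq2 1.19.11 and the genome build GRCm38 are named in the submitters' processing notes. The authors deposited 1 normalized count per gene and library, an estimated count scaled between libraries, which was treated as a signal and not as a raw count. The sources used here give neither the depth before scaling nor the annotation, the filters or the strand setting.

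Genes with a mean of at least 10 normalized counts (16659) were taken as log2(value + 1) and fitted with limma 3.58.1 (R 4.3.3, moderated with a trend and robustly) on 12 groups of genotype, drug and sex, with the sex effect averaged. P-values were adjusted by Benjamini-Hochberg over all 16659 genes, and an adjusted p under 0.05 was called. Fold changes on this scale understate the change of low genes. The fit was tried on the same data with residuals shuffled over libraries within sex and known changes added to some genes. That trial does not bear on the calls given here. Pair correlations used 100000 permutations. Transcript lengths and gene overlaps came from GENCODE vM21, and promoters from RefSeq on GRCm38.p6.

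The text accounts for every member. It gives values for members called in any comparison, for the 5 with the largest SD within groups, for the 3 with the smallest p where fewer than 3 were called, for up to 4 called genes of each other pathway list and for the 5 pairs with the largest r. The members, lists and tests were chosen with earlier results of these data known. Tests within each sex, the leaving out of 2 or 15 libraries and the rank length term were added after the data were seen.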

Additional observations from a re-analysis of the deposited data

Results flagged for a closer look

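In 15 of 132 sets of 1 gene in 1 arm, a single library stood far from its arm. The genes correlate, some were picked for their spread, and arms pool both sexes. No chance rate can therefore be set beside this count. The sets cover 22 genes and 6 arms. Each value is a normalized count, and no explanation was tested.

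HT lithium female replicate 3 was the highest of its arm for Sdf2l1 (522.1), Xbp1 (2506) and Dnajb1 (2162). WT lithium female replicate 2 was the highest of its arm for Manf (1740) and Hspb1 (236.5). WT vehicle male replicate 2 was the highest of its arm for Manf (2320), Ddit3 (760.8) and Dnajb1 (2563).

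HT fluoxetine male replicate 3 was the lowest of its arm for Canx (7971) and Hsph1 (3993). WT vehicle female replicate 2 was the lowest for Atf5 (329.4) and the highest for Atf6 (4161). The ER-associated degradation gene Edem1 was lowest in HT lithium male replicate 3 (582.9). Its partner in the pathway Sel1l was highest in HT vehicle male replicate 3 (8233) and lowest in WT lithium male replicate 5 (6050).

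The HT against WT change of Asns under fluoxetine differed by sex, female minus male, by -0.57 on the log2 scale (adjusted p = 0.0313 by limma).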

How the results depend on the processing

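Counts of called genes among the 33 depended on the processing as follows. For fluoxetine over both genotypes, 12 became 7 with no filter or with only the groups compared, and 6 without the 2 libraries that stand apart. It became 0 with the length term (alone, by rank, or without WT vehicle male replicate 2). No count is given for fluoxetine without the 15 libraries high in striatal markers, which include 4 of the 5 WT fluoxetine female libraries. For lithium over both genotypes, 6 became 3 with no filter or with only the groups compared. With the length term there was 1 call, the rise of Atf4, which was not among the 6. There were 0 with the length term and without WT vehicle male replicate 2, with that term by rank, or without the 15 libraries. For lithium in WT mice, 1 became 3 with a mean of at least 50, 2 with upper quartile scaling, and 0 with no filter, no trend, only the groups compared, any length term, or either set of libraries left out. Over all treatments HT against WT had 1 call with the length term, with or without WT vehicle male replicate 2, and 1 without the 2 libraries. Female against male had 1 with each length term. Apart from fewer libraries or genes entering some fits, the cause was not tested.

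Leaving out 1 library at a time gave 7 to 17 calls for fluoxetine and 3 to 10 for lithium over both genotypes, 0 to 4 for lithium in WT, 0 to 2 for HT against WT over all treatments and 0 to 1 for sex. Fluoxetine in HT mice gave 0 to 4, with 4 without HT vehicle male replicate 2, and in WT mice 0 to 6, with 6 without WT vehicle female replicate 1. The other contrasts stayed at 0. Pair correlations gave 330 calls without WT vehicle male replicate 2 and 321 by Spearman's rho.

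With a replicate block, fluoxetine had 8 calls, lithium 4 and lithium in WT mice 0. The numbers showed no pairing of the libraries. Deviations correlated above 0.1 in 28 of 300 same-numbered pairs, with a mean r of -0.008, and in 146 of 1188 other pairs. The numbers are those of the sample titles, which in WT vehicle females differ in part from the numbers in the library names. Of the single-gene values recomputed, 2291 kept their side of the threshold, 372 lost and 42 gained a call, and 0 changed sign. The settings with the rank term, with 15 or 2 libraries left out, and with the length term without WT vehicle male replicate 2 were chosen after seeing the data. Fits with only the groups compared could not be fitted separately for HT against WT over all treatments or for sex, which use all groups. Raw depth is unknown, so counting error cannot be given for the lowest genes.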
